A study of Rattus norvegicus with 65 samples.

Results

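PYY3-36 given alone was compared with saline in the hypothalamus of obese rats, gene by gene. The comparison used 9 of the 65 libraries of the series, chosen by their labels: 4 from PYY3-36-treated animals (replicates 1 to 4) and 5 from saline-treated animals (replicates 4 to 8), all of batch B, the label of one of the periods in which the experiments were run. All were male Wistar rats, 9 to 10 weeks old at the start, made obese by 6 weeks on a diet with 60% of its calories from fat. The PYY3-36 group then received 0.1 mg/kg/day of the peptide from an osmotic minipump under the skin, with saline injections. The saline group received saline by both routes. The main test took its estimate of the spread from 1 fit over all 28 batch B libraries. The further libraries were of 3 bypass-operated and 6 sham-operated animals, 5 given liraglutide and 5 given PYY3-36 with liraglutide. All animals could then choose between high-fat and low-fat chow, and brains were taken 4 weeks later, after 10 h of fasting. The experiment had 5 PYY3-36-treated animals, of which 1 was lost at RNA extraction. The hypothalamus was cut as a whole from the frozen brain, without separating its nuclei, and in such bulk samples fewer cells of a type and less RNA per cell cannot be told apart. Messenger RNA was sequenced, and the 9 libraries held 20622249 to 26937663 counts, with a median of 24386231. Of 38513 annotated genes, 20628 had enough counts to be tested.

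PYY3-36 is the trimmed form of peptide YY, a hormone that L cells of the gut release after a meal. The peptidase DPP4 makes it by removing the end of the full-length peptide, which shifts its preference towards the Y2 receptor. Y2 is an inhibitory receptor coupled to Gi/o proteins, and it sits on the NPY/AgRP neurons of the arcuate nucleus, which drive feeding. Acting there, PYY3-36 is known to quiet these neurons, to relieve the neighbouring POMC neurons of their inhibition and to reduce food intake.

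The libraries differed widely in genes that mark single nuclei, among them peptides described further on. Whether the tissue cut differed between animals was not tested. Levels are given as CPM, counts scaled to a common library size, after scaling by the trimmed mean of M values (TMM). Pomc, the arcuate precursor of the satiety peptide alpha-MSH, measured 172, 2.97, 173 and 4.51 CPM in PYY3-36 replicates 1 to 4, and 2.09, 8.95, 4.34, 3.93 and 3.16 CPM in saline replicates 4 to 8. Pmch, which encodes melanin-concentrating hormone of the lateral hypothalamus, measured 906, 1.35, 880 and 436 CPM with PYY3-36 and 1.78, 93.3, 74.4, 122 and 5.92 CPM with saline. Oxt, the oxytocin gene of the paraventricular and supraoptic nuclei, measured 123, 5.32, 105 and 929 CPM against 1.39, 580, 2860, 383 and 499 CPM. PYY3-36 replicate 2 and saline replicate 4 thus had the lowest Pmch and Oxt levels of their groups. The same pair had the highest summed level of 10 cortex markers, 2161 and 3033 CPM, against 217 to 1038 CPM in the other 7 libraries.

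Further markers, most of them of tissue beyond the hypothalamus, moved with single libraries of both groups. The dopamine transporter gene Slc6a3, which hypothalamic as well as midbrain dopamine neurons use, measured 82.6, 0.0451, 143 and 0.0355 CPM in PYY3-36 replicates 1 to 4 and had no count in any saline library. Summed anterior pituitary markers reached 149, 9.96, 420 and 2.13 CPM with PYY3-36 and 1.43, 4.26, 3.003, 3.21 and 1.75 CPM with saline, led by Cga at 110 CPM in replicate 1 and by Gh1 and Prl at 310.1 and 84.7 CPM in replicate 3. Of 10 pituitary markers 7 had enough counts to be tested, and all 7 were higher with PYY3-36 at an unadjusted p under 0.05 (6.91% over all genes). Prl had no count in any saline library and Cga at most 2. Such genes passed the count filter only through libraries where they were high, so that the 7 of 7 was partly fixed by the filter. The high sums were those of replicates 1 and 3, and the sum of replicate 4 lay within the saline range. In 0 of the 7 did all PYY3-36 libraries lie above all saline libraries. Gpr151, a gene of the habenula, measured 43.4 and 88.4 CPM in saline replicates 5 and 7 and at most 0.325 CPM in the other 7 libraries. The summed level of 12 oligodendrocyte markers was 58200 CPM in PYY3-36 replicate 2 and 20200 to 34970 CPM elsewhere. Summed striatum markers were at 2982 CPM in saline replicate 8 and 334 to 1201 CPM elsewhere. Values without these libraries are given beside a number of the results they touch. The part of tissue beyond the hypothalamus in the other results was not tested.

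**Figure D1:**
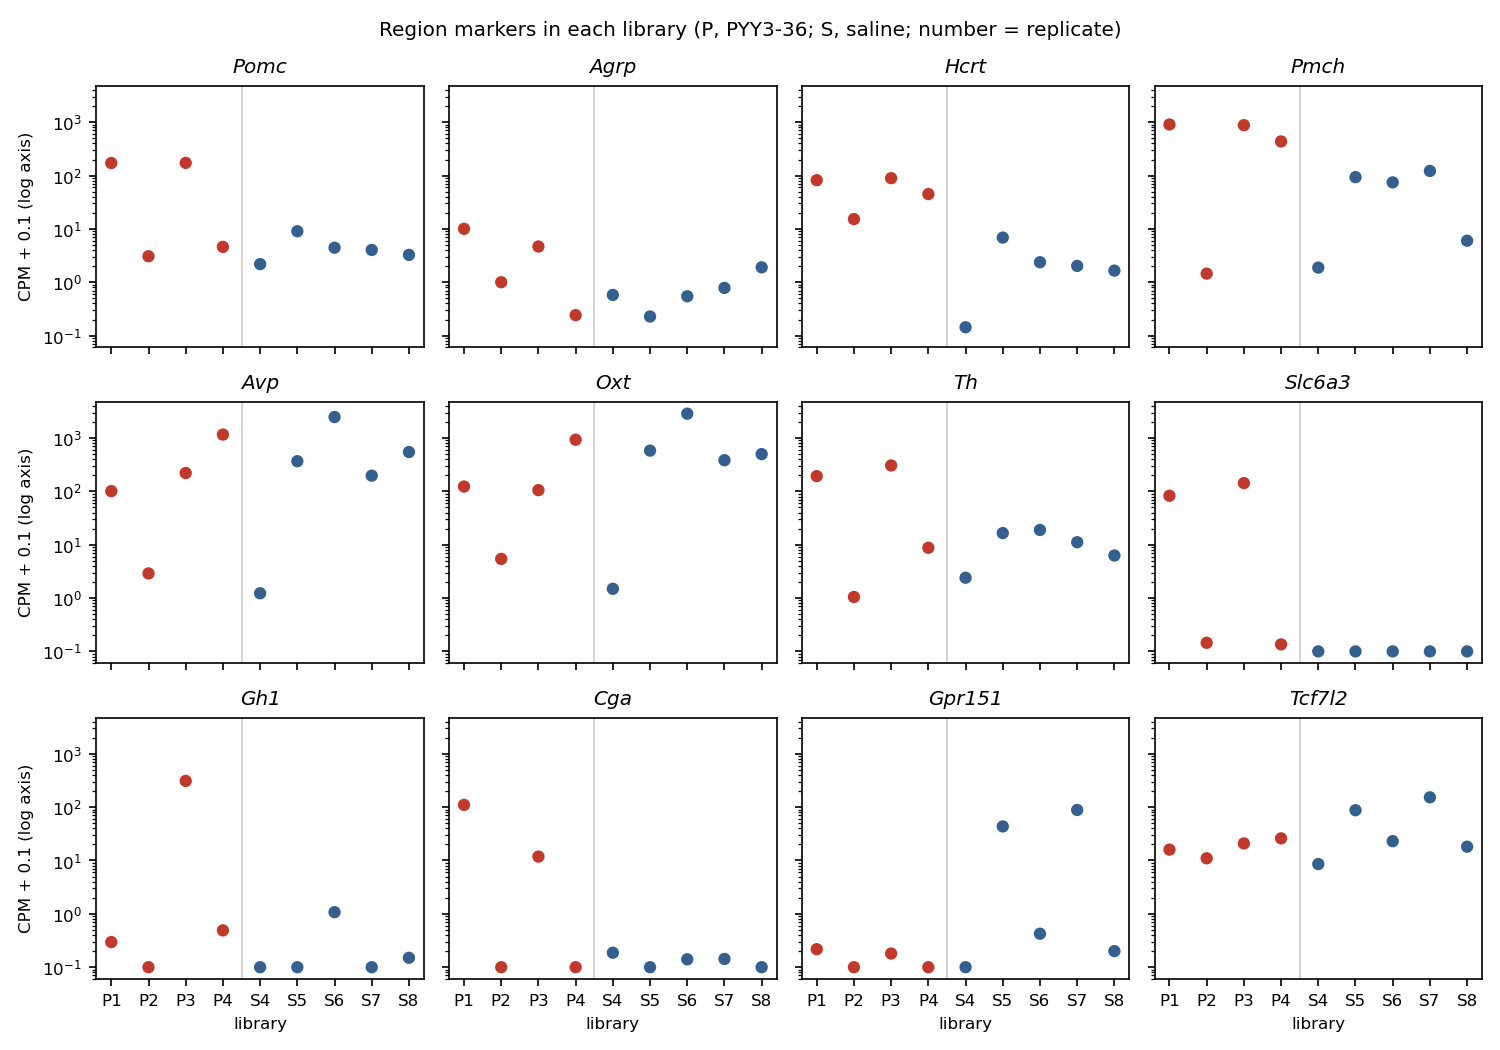
Level of 12 region markers in each of the 9 libraries, as CPM + 0.1 on a log axis, with PYY3-36 replicates 1 to 4 in red and saline replicates 4 to 8 in blue; a library without a count sits at 0.1. Pomc and Slc6a3 were high in PYY3-36 replicates 1 and 3 alone, at 172 and 173 CPM for Pomc, and Gpr151 was high in saline replicates 5 and 7 alone.

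No gene was called different between PYY3-36-treated and saline-treated animals, where a call needs an adjusted p under 0.05 together with a log2 fold change beyond 1 in either direction (edgeR's quasi-likelihood test, Benjamini-Hochberg adjustment over all genes tested; 0 of 20628 genes, 0%). No gene had an adjusted p under 0.05 either, and the smallest was 0.052. Below that threshold the groups still differed in many genes: 1425 genes (6.91%) were higher and 1826 (8.85%) lower with PYY3-36 at an unadjusted p under 0.05. At an adjusted p under 0.1 these were 100 higher (0.485%) and 207 lower (1%). In 555 genes (2.69%) all 4 PYY3-36 libraries lay above all 5 saline libraries, and in 815 genes (3.95%) all lay below. The differences were mostly small. The median log2 fold change was 0.65 among the 1425 higher genes and -0.33 among the 1826 lower genes.

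How many genes passed differed between tools. DESeq2 on the 9 libraries, with the shrinkage the study used, called 40 genes and put 522 at an adjusted p under 0.05. On the same 9 libraries edgeR put 0 there, with a smallest adjusted p of 0.161. Fitted on the 28 batch B libraries, limma voom with sample weights called 106 and put 788 at an adjusted p under 0.05. DESeq2 and voom shared 340 of these genes, 65.1% of the DESeq2 genes and 43.1% of the voom genes. All 340 had the same direction in both. The edgeR count also changed with libraries outside the comparison, which only help to estimate the spread and were left out 1 at a time. Without replicate 10 of the PYY3-36 + liraglutide group, edgeR called 27 genes and put 236 at an adjusted p under 0.05. This library was picked for mention because its count was the highest. Without any other single library given liraglutide, alone or with PYY3-36, edgeR put 0 to 10 genes there.

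The genes with the smallest p among those higher with PYY3-36 were of several functions and all had an adjusted p of 0.052. Tbcel, a tubulin chaperone-like gene on chromosome 8 (46691488 to 46750816 in Rnor_6.0), measured 54.9, 60.2, 50.9 and 51.3 CPM with PYY3-36 and 41.6, 43.4, 38.9, 40.9 and 43.2 CPM with saline, a log2 fold change of 0.38 ± 0.06 (SE). Axl, a receptor tyrosine kinase with which glia and macrophages take up dying cells, measured 34.5, 28.9, 37.8 and 28.7 CPM against 21.8, 14.5, 17.6, 19.8 and 18.4 CPM (0.82 ± 0.16). The groups did not overlap in either gene. Slc2a10, which encodes the glucose transporter GLUT10, measured 9.39, 8.34, 7.47 and 3.94 CPM against 1.17, 3.79, 2.11, 1.75 and 1.20 CPM (1.85 ± 0.40). Its lowest PYY3-36 library, replicate 4, lay just above its highest saline library, replicate 5. Per3, a period gene of the circadian clock, measured 30.0, 33.3, 28.4 and 31.9 CPM against 15.5, 21.7, 17.9, 17.7 and 20.7 CPM (0.72 ± 0.16), again with no overlap.

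The other 8 of these 12 genes were Inppl1, Zak, Dock1, Eef2k, Slc39a1, Hps5, Abcc1 and Arsb, with log2 fold changes from 0.34 ± 0.07 for the zinc transporter gene Slc39a1 to 0.81 ± 0.16 for the stress kinase gene Zak. Inppl1 encodes SHIP2, a lipid phosphatase that dampens insulin signalling, and measured 44.3 to 63.8 CPM with PYY3-36 and 33.4 to 40.2 CPM with saline (0.56 ± 0.11). Eef2k encodes the kinase that slows protein elongation, and was the only one of the 12 in which the groups overlapped, at 28.8 to 46.2 CPM against 22.5 to 29.1 CPM (0.54 ± 0.11). Over all genes 2.69% lay entirely above. As the 12 were chosen by p in these same libraries, their separation is no further support. Arsb, a lysosomal sulfatase, measured 79.2 to 104 CPM against 37.1 to 62.4 CPM (0.76 ± 0.17).

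The 12 genes with the smallest p among those lower with PYY3-36 were of several functions, 5 of them encoding mitochondrial proteins. The groups did not overlap in any of the 12, against 3.95% of all genes entirely below. As the 12 were chosen by p in these same libraries, the separation is no further support. Apoo encodes a subunit of the complex that shapes mitochondrial cristae, and measured 36.8, 33.8, 34.7 and 40.1 CPM with PYY3-36 and 48.9, 42.8, 51.5, 52.2 and 54.9 CPM with saline (-0.46 ± 0.09). March9, a membrane ubiquitin ligase, measured 23.1, 19.4, 23.98 and 23.7 CPM against 36.3, 30.3, 29.2, 29.9 and 36.0 CPM (-0.52 ± 0.10). Uqcrfs1 encodes the Rieske iron-sulfur protein of respiratory complex III, and measured 140, 126, 151 and 155 CPM against 183, 203, 186, 186 and 193 CPM (-0.41 ± 0.09). Of the 12, 3 encode mitochondrial ribosomal proteins, namely Mrps34 (-0.45 ± 0.09), Mrps9 (-0.47 ± 0.10) and Mrpl34 (-0.46 ± 0.10). Scg5 encodes 7B2, the chaperone of the prohormone convertase PC2, and measured 471, 357, 461 and 453 CPM against 739, 564, 625, 518 and 638 CPM (-0.50 ± 0.10). The remaining 5, Rab24, Bod1, Smap1, Pfdn6 and Nedd8, had log2 fold changes from -0.54 ± 0.11 for the prefoldin subunit Pfdn6 to -0.36 ± 0.08 for the ubiquitin-like modifier Nedd8. The adjusted p was 0.052 for all 12.

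**Figure D2:**
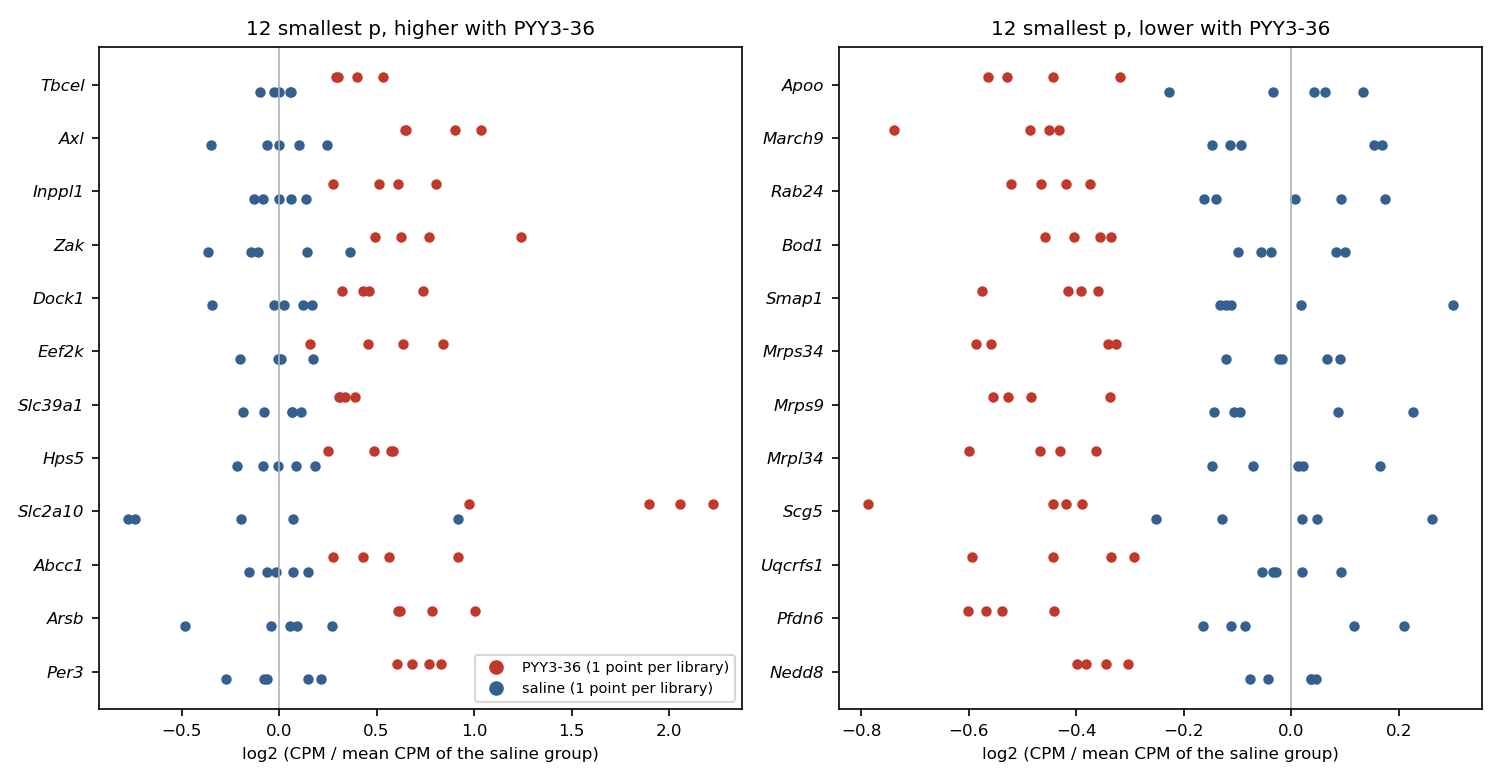
The 12 genes with the smallest p in each direction, as the log2 ratio of each library's CPM to the mean CPM of the saline group, 1 point per library, PYY3-36 in red and saline in blue. The groups overlapped in Eef2k alone, and the shifts were under 1 on the log2 scale except in Slc2a10 (1.85).

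Of the 19 pathway lists, oxidative phosphorylation had the highest share of members lower with PYY3-36. These nuclear genes encode the respiratory complexes and ATP synthase, which make most of a neuron's ATP. All 76 members tested had a negative log2 fold change, and 69 were lower at an unadjusted p under 0.05, against 8.85% of all genes tested. Their median log2 fold change was -0.36, against -0.01 for all genes, and in 51 of the 76 all PYY3-36 libraries lay below all saline libraries, against 3.95% of all genes. None was called by edgeR, whereas DESeq2 put 34 and limma voom 38 of them at an adjusted p under 0.05. Their summed level was 13560, 12410, 13540 and 12670 CPM with PYY3-36 and 16140, 15430, 16560, 16370 and 17550 CPM with saline, again with no overlap.

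Members of every complex were lower. Of the complex I genes (those named Nduf, Ndufa4 included) 34 of 37 were lower at an unadjusted p under 0.05, of complex II 3 of 4, of complex III 7 of 9, of complex IV 10 of 10 and of ATP synthase 14 of 15, besides the cytochrome c gene Cycs, with medians from -0.25 (complex II) to -0.41 (complex IV). Ndufa4, which encodes a small subunit bound to complex IV, measured 278, 257, 276 and 272 CPM with PYY3-36 and 368, 364, 385, 387 and 434 CPM with saline (-0.52 ± 0.11, adjusted p = 0.052). Ndufb7, a complex I subunit, measured 79.9, 70.0, 83.9 and 63.5 CPM against 101, 102, 105, 113 and 140 CPM (-0.59 ± 0.14, adjusted p = 0.0578). The complex I gene Ndufs3 was lower by less (-0.39 ± 0.09, adjusted p = 0.0556). A further 48 of 72 mitochondrial ribosomal protein genes, grouped by symbol after their values were seen, were lower at an unadjusted p under 0.05, with none higher and a median of -0.29. The 18 genes of the mitochondrial genome itself overlapped between groups in their sum, at 10380 to 15630 CPM against 12530 to 28190 CPM, with a median log2 fold change of -0.49, and 2 of them were lower at an unadjusted p under 0.05.

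Several measured features of the libraries moved together with these genes. The first was gene length. Among the shortest 4127 genes tested (combined exon length 60 to 1339 bases) 17.4% were lower and 3.03% higher at an unadjusted p under 0.05, and among the longest 4125 (5116 bases and more) 3.44% were lower and 11.5% higher. Oxidative phosphorylation genes are short, with a median of 702 bases against 2675 for all genes. The median deviation of short minus long genes was -0.068, -0.141, -0.112 and -0.267 (log2) in PYY3-36 replicates 1 to 4 and -0.046, 0.059, 0.170, 0.055 and 0.163 in saline replicates 4 to 8, so that the groups did not overlap. With each library's length trend removed, 38 of the 76 genes were lower at an unadjusted p under 0.05. Their median was -0.19, against -0.00151 for all genes in that fit. The share of all genes lower in that fit is not given here. Within the shortest genes of the main fit, 61 of 63 oxidative phosphorylation genes were lower, against 16.2% of the 3975 genes outside this list and the ribosomal one.

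The second feature was the level of neuronal markers. The summed level of 12 neuronal markers was 4218, 4520, 4465 and 4989 CPM with PYY3-36 and 8318, 4833, 5424, 5657 and 5599 CPM with saline, and PYY3-36 replicate 4 alone lay above the lowest saline library. Syt1 and Snap25, which encode proteins of synaptic vesicle release, were lower with PYY3-36 (-0.64 ± 0.18 and -0.47 ± 0.16), as was Gad1, an enzyme of GABA synthesis (-0.47 ± 0.21). Gad1 stood apart in saline replicate 8, at 526.3 CPM, the library with the highest striatum sum. Without saline replicate 4, the library with the highest neuronal sum, Syt1 was at -0.39 and Snap25 at -0.30. With all libraries the 3 genes were at unadjusted p of 0.00127, 0.00587 and 0.0342, and 11 of the 12 markers had a negative log2 fold change. The number of genes with at least 1 count also differed without overlap, at 23734 to 23896 with PYY3-36 and 22830 to 23507 with saline.

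Without the libraries that stood apart the oxidative phosphorylation count was 65 of 76 without PYY3-36 replicate 2 and saline replicate 4, 60 without PYY3-36 replicates 1 and 3, and 64 without saline replicates 5 and 7. The shares of all genes lower in these fits are not given here. With all 65 libraries of both batches in 1 fit the oxidative phosphorylation count was 8 of 76, with a median of -0.28. Over all genes the count of lower genes fell as well, to 803 of 21871 in that fit against 1826 of 20628 in the main one.

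**Figure D3:**
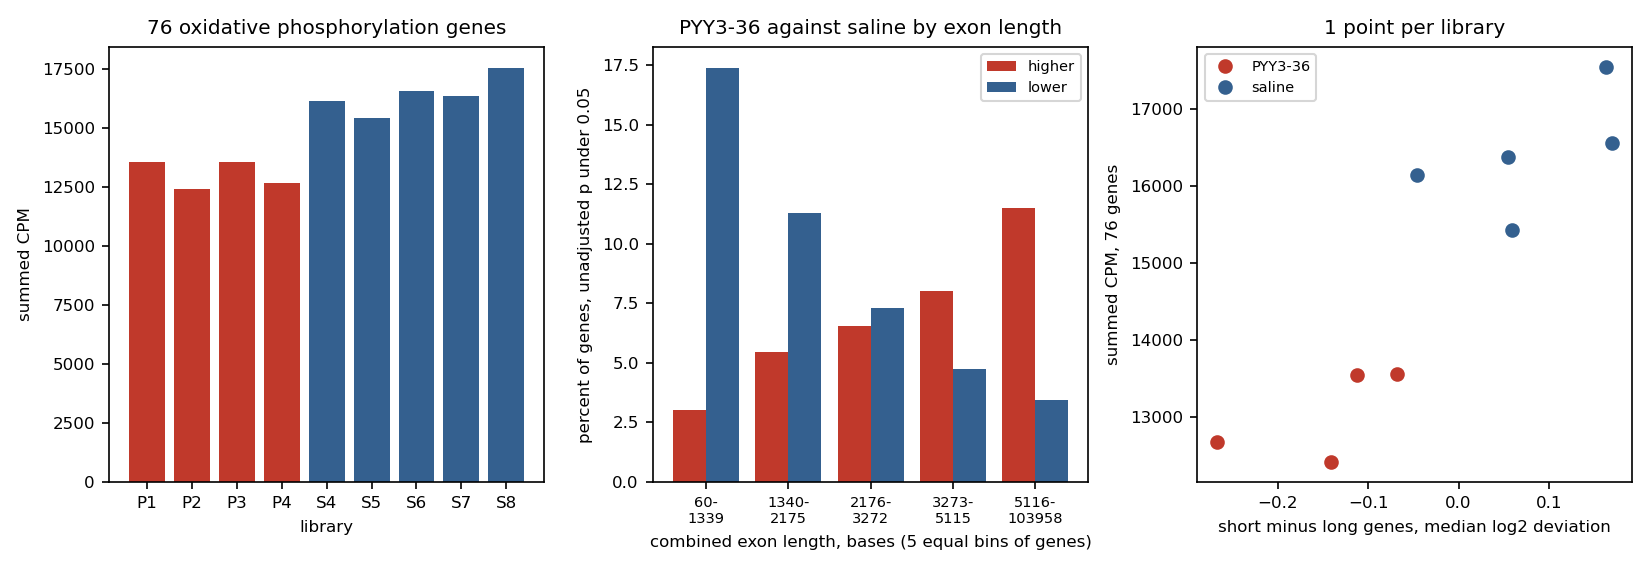
Left, the summed CPM of 76 oxidative phosphorylation genes in each library, from 12410 to 13560 with PYY3-36 (red) and from 15430 to 17550 with saline (blue). Middle, the percent of genes higher or lower with PYY3-36 at an unadjusted p under 0.05 in 5 equal bins of exon length, lower genes making up 17.4% of the shortest bin and 3.44% of the longest; right, the summed CPM against each library's deviation of short from long genes (log2).

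The promoters of these genes are shown because they were lower together. Many nuclear genes of mitochondrial proteins are known to be controlled by ETS factors of the GABP type and by NRF1. The RefSeq promoter table of the newer assembly GRCr8 matched 64 of the 76 genes by gene ID. In the 250 bases before the start, on either strand, the ETS core CCGGAAG was found in 18 of these 64 (28.1%) in 12.5% of the promoters of the 13918 tested genes that matched, and in 7.74% of all 27457 promoters of the table. Among the genes lower at an unadjusted p under 0.05 it was found in 18.5% of the 1295 that matched. The NRF1 core GCATGCGC was found in 9 of the 64 (14.1%) in 3.87% of those of tested genes, in 6.02% of those of the lower genes and in 2.38% of all promoters. Of all tested genes 13918 of 20628 matched the table, so that their share covers a part of them. The 3 genes with the smallest p among those with a match are printed 5′ to 3′ up to the base before the start, with the matches in capitals.
Ndufb7 (chr19:41477292-41477441, minus strand; ETS core at -16): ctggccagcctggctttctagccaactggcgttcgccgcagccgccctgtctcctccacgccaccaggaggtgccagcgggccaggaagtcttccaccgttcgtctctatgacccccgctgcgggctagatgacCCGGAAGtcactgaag
Atp5i (chr14:1464710-1464859, plus strand; NRF1 core on both strands at -74 and -76, which overlap, and ETS core on the reverse strand at -11): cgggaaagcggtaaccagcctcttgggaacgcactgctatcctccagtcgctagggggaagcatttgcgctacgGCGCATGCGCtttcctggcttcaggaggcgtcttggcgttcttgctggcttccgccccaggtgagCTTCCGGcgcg
Uqcrh (chr5:134790883-134791032, minus strand; ETS core on the reverse strand at -83): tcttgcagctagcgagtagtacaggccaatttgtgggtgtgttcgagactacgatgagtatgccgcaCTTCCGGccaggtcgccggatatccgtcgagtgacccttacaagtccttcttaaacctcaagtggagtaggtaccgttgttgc
Atp5i and Uqcrh, subunits of ATP synthase and of complex III, had log2 fold changes of -0.58 ± 0.14 and -0.42 ± 0.11. A match describes these letters only, and factor binding was not measured.

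Cytosolic ribosomal protein genes leaned the same way, less strongly. Of 94 tested, 16 were lower at an unadjusted p under 0.05 (8.85% over all genes), none was higher, 87 had a negative log2 fold change and the median was -0.22. Rps25 measured 125, 129, 120 and 111 CPM with PYY3-36 and 131, 153, 170, 144 and 193 CPM with saline (-0.38 ± 0.14), and Rpl38 82.7 to 91.7 CPM against 100 to 144 CPM (-0.38 ± 0.14). The count rested on single libraries, being 1 of 94 without saline replicate 8, 2 without PYY3-36 replicate 4 and 29 without saline replicate 4. With the length trend removed no ribosomal gene was lower at an unadjusted p under 0.05 and 3 were higher.

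The receptors through which PYY3-36 acts did not pass any threshold. Npy2r, its main receptor, measured 12.5, 7.03, 10.8 and 9.83 CPM with PYY3-36 and 7.74, 9.72, 7.06, 7.18 and 5.57 CPM with saline. The groups overlapped, and the log2 fold change was 0.43 ± 0.35, with a 95% interval from -0.28 to 1.14 (p = 0.223, adjusted p = 0.556), which spans a small decrease as well as an increase beyond the fold that a call needs. Npy1r and Npy5r, which carry the feeding signal of NPY, had log2 fold changes of -0.31 ± 0.24 and -0.14 ± 0.30. Npy4r, the receptor of pancreatic polypeptide, had too few counts to be tested, with 0.352, 0, 0.201 and 0 CPM against 0.0869, 0.597, 0.325, 0.299 and 0.0501 CPM. Per kilobase of exon, the mean level in saline-treated animals ran from 5.13 CPM for Npy1r through 2.22 for Npy2r and 1.12 for Npy5r to 0.216 for Npy4r. Npy1r (4.32 to 5.97) lay above Npy2r (1.66 to 2.90) in every saline library, Npy2r above Npy5r (0.756 to 1.44) and Npy5r above Npy4r (0.0399 to 0.475).

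The ligands and peptidases of the system were likewise not called. Npy, the arcuate and cortical neuropeptide that shares these receptors, measured 12.99, 14.2, 14.1 and 11 CPM with PYY3-36 and 43.6, 9.89, 15.4, 10.4 and 39.4 CPM with saline (-0.86 ± 0.54). Its saline spread came from replicates 4 and 8. The peptide's own gene, Pyy, stayed at 0 to 0.461 CPM against 0 to 0.597 CPM, and the pancreatic polypeptide gene Ppy had no count in the 9 libraries. Dpp4, which encodes the peptidase that makes PYY3-36, measured 3.68, 1.85, 4.18 and 3.58 CPM against 1.35, 1.83, 1.71, 1.71 and 0.802 CPM (1.16 ± 0.62, p = 0.0743). All 4 PYY3-36 libraries lay above all saline libraries, the closest pair being replicate 2 and saline replicate 5. The further peptidases Fap and Mme, had log2 fold changes of 0.05 ± 0.79 and -0.07 ± 0.59. Of the 8 genes tested in this group none was at an unadjusted p under 0.05.

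Among Gi/o signalling genes, which carry the Y receptor signal, 2 of 22 were higher and 3 lower at an unadjusted p under 0.05, near the shares over all genes (6.91% and 8.85%). Gnai3 and Gnai2, inhibitory alpha subunits, were higher (0.30 ± 0.09 and 0.28 ± 0.09), and in both all PYY3-36 libraries lay above all saline libraries. Rgs4, a neuronal brake on Gi/o signals, measured 128, 142, 124 and 164 CPM with PYY3-36 and 391, 170, 255, 260 and 188 CPM with saline (-0.86 ± 0.22, adjusted p = 0.0792), and was at -0.65 without saline replicate 4. The neuronal gamma subunit gene Gng3 was lower as well (-0.56 ± 0.15, adjusted p = 0.0947). The part of the neuronal marker sum, given above, in these values was not tested.

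Feeding peptides varied widely between the libraries of a group. Of 11 appetite-raising peptide genes tested 4 were higher with PYY3-36 at an unadjusted p under 0.05, and of 17 appetite-lowering ones 2 were higher and 1 lower. Over all genes 6.91% were higher and 8.85% lower. Besides Hcrt, the higher ones were Npvf, Galp, Agrp, Pomc and Nmu, which rested on PYY3-36 replicates 1 and 3. In PYY3-36 replicates 1 to 4 Npvf measured 39.8, 0, 39.2 and 0.0355 CPM and Galp 6.53, 0.0451, 1.77 and 0.071 CPM. Nmu was high in replicate 1 alone, at 9.31 CPM. Pomc had a log2 fold change of 4.29 ± 1.32 (p = 0.00331, adjusted p = 0.128), with replicates 1 and 3 alone above the saline range, and was -0.25 without them. Agrp, the orexigenic partner of Npy, measured 9.94, 0.901, 4.58 and 0.142 CPM against 0.478, 0.128, 0.446, 0.684 and 1.80 CPM (2.47 ± 1.02), and was at -0.44 without the same pair. Cartpt, the CART gene, measured 176, 5.59, 163 and 59.95 CPM against 6.74, 42.9, 57.1, 29.0 and 71.2 CPM (1.29 ± 0.81), and was at -0.32 without them. Pomc, Agrp and Cartpt were thus high in the same 2 PYY3-36 libraries, which also held Slc6a3 and the pituitary genes.

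Hcrt, the orexin gene of the lateral hypothalamus, was the feeding peptide whose groups did not overlap. It measured 81.8, 15.2, 89.3 and 44.9 CPM with PYY3-36 and 0.0435, 6.78, 2.27, 1.92 and 1.55 CPM with saline (4.51 ± 1.91, p = 0.0267, adjusted p = 0.255), and was at 3.58 (p = 0.108 by edgeR) without PYY3-36 replicates 1 and 3. Its neighbour Pmch, given above, overlapped (3.22 ± 1.91). Hcrt ranged from 0 to 305 CPM in the 6 sham-operated animals of the same batch and from 0.238 to 390 CPM in the 5 liraglutide-treated animals. The peptide genes Tac3 and Crh were lower. Tac3, the neurokinin B gene, measured 23.8, 6.71, 23.6 and 34.8 CPM with PYY3-36 and 39.3, 56.7, 36.5, 63.6 and 69.0 CPM with saline (-1.25 ± 0.32, adjusted p = 0.0792), with no overlap. Crh, which encodes the stress and satiety peptide CRH, measured 2.93, 1.31, 2.13 and 4.97 CPM against 6.65, 12.5, 11.5, 3.81 and 6.47 CPM (-1.52 ± 0.48, adjusted p = 0.133).

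Receptors of feeding signals were close to the background, with 4 of 51 higher and 2 lower at an unadjusted p under 0.05 (6.91% and 8.85% over all genes). Fgfr1, through which FGF21 acts, measured 158, 224, 142 and 126 CPM with PYY3-36 and 72.3, 118, 107, 114 and 102 CPM with saline (0.67 ± 0.16, adjusted p = 0.0599), with no overlap, and was at 0.47 without PYY3-36 replicate 2, its highest library. Ntrk2, the BDNF receptor, was higher by less (0.34 ± 0.12, adjusted p = 0.173). Htr2c, the serotonin receptor through which satiety drugs act, measured 101, 77.9, 116 and 163 CPM against 126, 212, 155, 197 and 148 CPM (-0.55 ± 0.21, adjusted p = 0.215).

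Leptin and insulin signalling genes leaned higher, with 5 of 26 at an unadjusted p under 0.05 (6.91% over all genes), none lower, and a median of 0.17. Stat5a measured 17.5, 15.6, 16.7 and 10.6 CPM with PYY3-36 and 7.09, 10.8, 11.1, 11.3 and 8.12 CPM with saline (0.64 ± 0.17, adjusted p = 0.0898). Its sister gene Stat5b (0.69 ± 0.23), the insulin receptor substrate gene Irs1 (0.80 ± 0.29), the leptin-activated factor gene Stat3 (0.46 ± 0.18) and Socs3, the feedback inhibitor of leptin signalling (0.86 ± 0.35), made up the rest. Socs3 measured 5.28, 1.71, 5.22 and 3.09 CPM against 2.13, 1.96, 2.23, 3.08 and 1.10 CPM, so that replicates 1 and 3 were again the highest. Without these 2 libraries Socs3 was at 0.20 and 1 of the 26 genes was at an unadjusted p under 0.05.

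Genes of lipid synthesis also leaned higher, with 9 of 31 higher (6.91% over all genes) and 1 lower at an unadjusted p under 0.05 and a median of 0.18. Scd, the stearoyl-CoA desaturase gene, measured 59.9, 75.3, 62.6 and 49.0 CPM against 44.6, 39.2, 42.0, 43.7 and 33.0 CPM (0.61 ± 0.18, adjusted p = 0.119). Its groups did not overlap. Srebf1, the factor that drives fatty acid synthesis, and Acaca, which commits carbon to it, had log2 fold changes of 0.49 ± 0.14 and 0.62 ± 0.20. Without PYY3-36 replicate 2, the library rich in oligodendrocyte RNA, 7 of 31 were higher, Srebf1 was at 0.26 and Scd at 0.50.

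Immediate early genes, which neurons switch on within minutes of activity, leaned lower, and the count turned on single libraries. Of 29 tested, 7 were lower (8.85% over all genes) and none higher at an unadjusted p under 0.05, and 26 had a negative log2 fold change, with a median of -0.48. Fos measured 9.27, 7.17, 27.5 and 20.1 CPM with PYY3-36 and 72.6, 22.6, 33.1, 23.3 and 15.1 CPM with saline (-1.06 ± 0.46, adjusted p = 0.263). Fosb (-1.23 ± 0.52), Egr2 (-1.92 ± 0.85) and Ier2 (-0.73 ± 0.33) were lower as well. Saline replicate 4 held a summed level of 1806 CPM of these genes, against 492 to 824 CPM in the other 8 libraries. Without it none of the 29 was at an unadjusted p under 0.05 and the median was -0.08. Without PYY3-36 replicate 1 none was, and without replicate 2 only 1.

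Among clock genes, Per3 and Nr1d1, a repressor of the clock (0.23 ± 0.09), were higher and Rora, its activating counterpart, was lower (-1.18 ± 0.31, adjusted p = 0.0816), 3 of 19 in all. Rora is also one of the thalamus markers, and its 2 highest libraries, saline replicates 5 and 7 at 44.2 and 76.5 CPM, were those with Gpr151. Without this pair Rora was at -0.68. For every list of this paragraph the counts are at an unadjusted p under 0.05, where 6.91% of all genes were higher and 8.85% lower. They were 5 of 18 higher and 4 lower for other hypothalamic peptides, a list that also holds enzymes and a transporter. Its higher members included the monoamine genes Slc6a3, Hdc and Th, each highest in PYY3-36 replicates 1 and 3. For glucocorticoid response genes 1 of 18 was lower. Further lists were interferon and MHC genes (1 of 30 higher), thyroid hormone genes (1 of 12 higher) and ER stress genes (1 of 22 higher, 2 lower). Among the last, the factor gene Atf4 measured 197 to 219 CPM with PYY3-36 and 238 to 330 CPM with saline (-0.41 ± 0.12, adjusted p = 0.108). Of 38 GABA and glutamate receptor subunits 1 was higher and 5 lower, with the glutamate receptor subunit Grik4 higher (0.62 ± 0.19, and 0.28 without PYY3-36 replicate 2, where it measured 102 CPM) and the GABA-A subunit Gabrb2 lower (-0.52 ± 0.21).

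**Figure D4:**
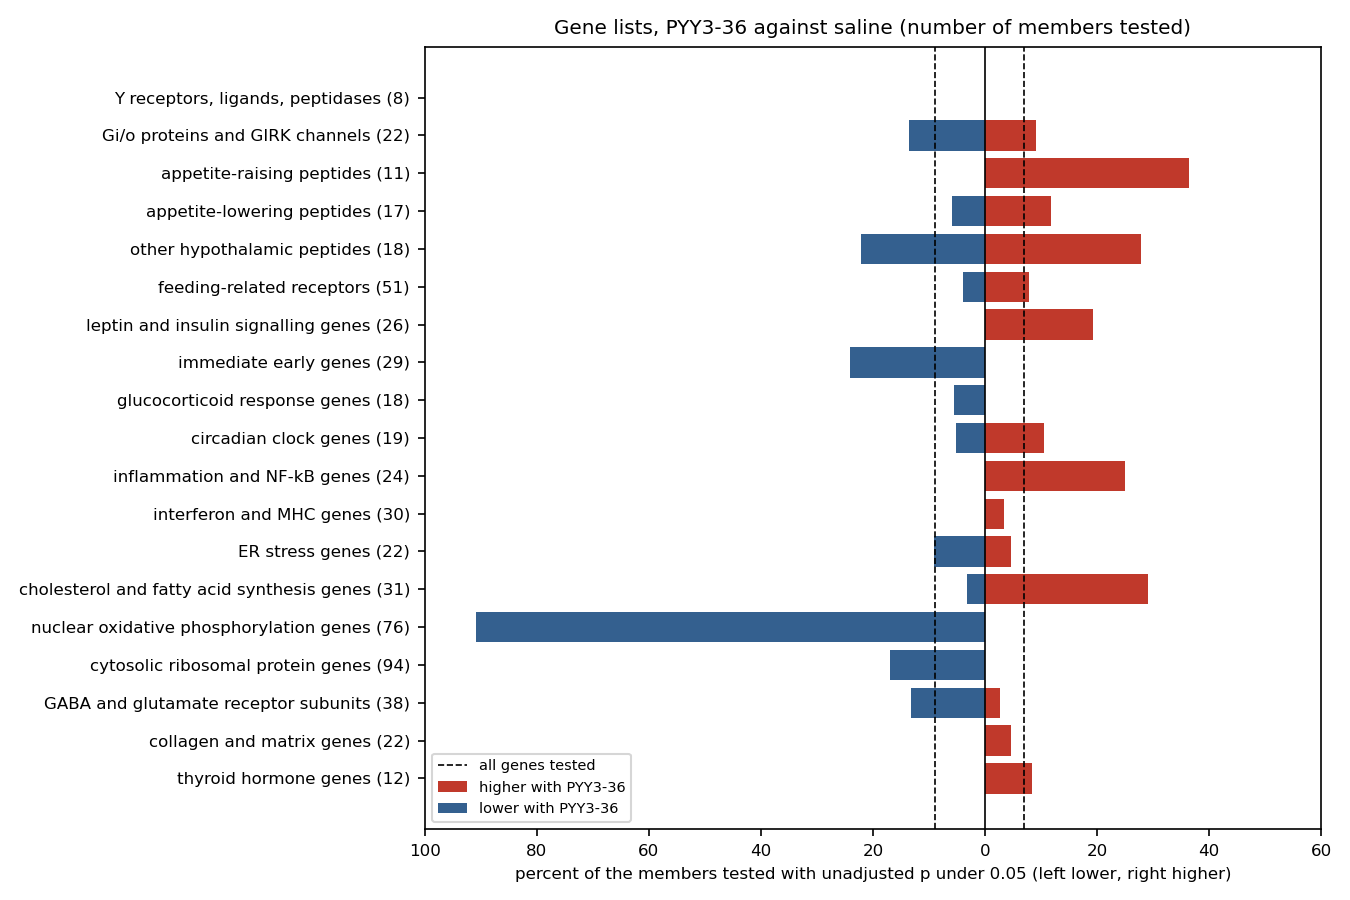
Percent of the members of 19 gene lists that were higher (red, right) or lower (blue, left) with PYY3-36 at an unadjusted p under 0.05, with the number of members tested in parentheses. Dashed lines mark all genes tested, 6.91% higher and 8.85% lower; oxidative phosphorylation genes (69 of 76 lower) extend furthest.

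Genes of glia and of inflammation leaned higher. Of 24 inflammation and NF-kB genes tested, 6 were higher and none lower at an unadjusted p under 0.05, against 6.91% and 8.85% of all genes, with a median of 0.21. Nfkb2 measured 8.25, 8.38, 8.32 and 6.67 CPM with PYY3-36 and 4.09, 6.57, 3.86, 5.64 and 5.01 CPM with saline (0.65 ± 0.19, adjusted p = 0.117). Tlr4, the receptor for endotoxin and saturated fat, measured 2.31, 1.98, 3.46 and 2.52 CPM against 0.869, 1.11, 2.07, 0.727 and 0.702 CPM (1.22 ± 0.38, adjusted p = 0.131). The TNF receptor gene Tnfrsf1a was higher as well (0.52 ± 0.19). Of these inflammation genes 1 stayed at an unadjusted p under 0.05 once the marker sums of cortex, striatum, thalamus, pituitary and oligodendrocytes entered the fit as covariates.

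Vim, the intermediate filament gene of tanycytes, ependyma and reactive glia, measured 426, 325, 276 and 293 CPM with PYY3-36 and 74.2, 191, 130, 245 and 139 CPM with saline (1.08 ± 0.48, adjusted p = 0.273). Nes (0.55 ± 0.23), Aqp4, the water channel of astrocyte endfeet (0.41 ± 0.17), and Sox9 (0.36 ± 0.16) were higher by less. Summed tanycyte markers were at 411 to 608 CPM against 213 to 405 CPM, and Vim was the larger part of this sum in most libraries. Saline replicate 4 held 405 CPM with Vim at 74.2 CPM, so that the sum of the other tanycyte markers overlapped between the groups. Of the 12 tanycyte markers 9 had a positive and 3 a negative log2 fold change. Astrocyte markers summed to 7585 to 8703 CPM against 6433 to 8147 CPM. Of 12 microglial genes only C1qc was higher at an unadjusted p under 0.05 (0.39 ± 0.18), against 6.91% of all genes. Of 12 oligodendrocyte markers 0 were, though all 12 had a positive log2 fold change. Of 6 oligodendrocyte precursor genes 3 were, namely Gpr17 (0.95 ± 0.32), Vcan (0.52 ± 0.21) and Pdgfra (0.33 ± 0.15). Gpr17 was highest in PYY3-36 replicate 2, at 43.3 CPM against 10.4 to 25.4 CPM elsewhere, and without that library Gpr17 was at 0.61 and Vcan at 0.27.

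Several of the genes called by DESeq2 or limma voom encode matrix proteins, which is a description of genes named by their adjusted p in those fits. Efemp1, which encodes fibulin-3, measured 34.5, 27.1, 23.1 and 24.99 CPM with PYY3-36 and 11.3, 9.59, 14.6, 10.2 and 12.1 CPM with saline (1.25 ± 0.39, adjusted p = 0.133 by edgeR and 5.26e-08 by DESeq2). Adamtsl3, a matrix protein that binds fibrillin networks, measured 9.08, 5.09, 6.87 and 6.07 CPM against 2.83, 2.77, 2.84, 2.61 and 2.61 CPM (1.31 ± 0.38). Col8a2, a short-chain collagen, measured 22.1, 14.5, 18.5 and 15.2 CPM against 2.87, 9.38, 4.63, 5.99 and 3.56 CPM (1.73 ± 0.62). Thsd4 (1.25 ± 0.41), Cpxm2 (1.82 ± 0.79) and Itgbl1 (1.48 ± 0.76) encode further secreted or matrix proteins, and Slc47a1 (3.06 ± 1.12) an organic cation exporter. Mtr, the methionine synthase gene, differed by 1.02 ± 0.31 and LOC684327 (gene33915) by 1.59 ± 0.46. The symbol of the last occurs more than once in the table, so that its counts may be split with a near copy. The groups did not overlap in any of these 9 genes, which were chosen by p in the same libraries, against 2.69% of all genes entirely above.

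Markers of the meninges are given beside them. All 9 meningeal markers had a positive log2 fold change but none was at an unadjusted p under 0.05, and their sum was 950, 259, 759 and 802 CPM with PYY3-36 and 153, 539, 179, 738 and 263 CPM with saline. In PYY3-36 replicate 2, whose meningeal sum lay within the saline range, Efemp1 measured 27.1 CPM and Col8a2 14.5 CPM, above every saline library. In the same library Slc47a1 measured 3.11 CPM against 22.7, 16.5 and 10.5 CPM in replicates 1, 3 and 4. Cpxm2 measured 6.80 CPM there against 17.3, 14.3 and 21.0 CPM, and Timp1 3.69 CPM against 14.5, 9.36 and 11.8 CPM. The part of meningeal tissue in these values was not tested. Of 22 collagen and matrix genes 1 was higher at an unadjusted p under 0.05 (6.91% over all genes), the protease inhibitor gene Timp1 (1.29 ± 0.58). A positive log2 fold change was found in 20 of the 22.

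The same peptide was also tested on top of liraglutide, a GLP-1 receptor agonist given at 0.4 mg/kg/day. The animals were not among those compared with saline, but their libraries entered the shared fit and so its estimate of the spread. This contrast set 5 animals with both drugs against 5 with liraglutide alone. No gene was called there (0%), and 488 genes (2.37%) were higher and 739 (3.58%) lower with PYY3-36 at an unadjusted p under 0.05 (edgeR, smallest adjusted p 0.642). Most genes that differed against saline had the opposite sign in these animals. Of the 1425 genes higher against saline 416 (29.2%) had the same sign, against 40% of all genes, and 13 were higher and 184 lower at an unadjusted p under 0.05. Of the 1826 lower genes 639 (35%) had the same sign, with 21 lower and 88 higher. The 76 oxidative phosphorylation genes had a median of 0.00, none was at an unadjusted p under 0.05, and their sum overlapped between the groups, at 14300 to 17300 CPM with both drugs and 13200 to 18000 CPM with liraglutide.

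The difference of the 2 contrasts was itself tested, and 3 genes were called (0.0145%), with 6 at an adjusted p under 0.05 (0.0291%). Axl was higher with PYY3-36 against saline and measured 17.5 to 29.5 CPM with both drugs and 22.1 to 40.7 CPM with liraglutide alone (-0.37 ± 0.15), so that the contrasts differed by -1.19 ± 0.22 (adjusted p = 0.0452). Gpr183, which guides immune cells along oxysterols, measured 2.03, 1.76, 2.01 and 1.63 CPM with PYY3-36, 0.174, 0.981, 0.731, 1.11 and 1.55 CPM with saline, 0.279 to 0.540 CPM with both drugs and 0.794 to 3.16 CPM with liraglutide (difference -3.07 ± 0.57, adjusted p = 0.0452). LOC103693584, an uncharacterised locus on chromosome 11, measured 19.1, 20.8, 16.7 and 23.1 CPM with PYY3-36 and 40.3, 29.5, 25.1, 30.4 and 32.0 CPM with saline. With both drugs it was at 26.2 to 31.0 CPM and with liraglutide at 18.5 to 24.7 CPM (difference 1.10 ± 0.17, adjusted p = 0.0255). Apoo (0.64 ± 0.12), March9 (0.74 ± 0.13) and Maneal, a Golgi mannosidase-like gene (0.76 ± 0.14), differed in the same sense at an adjusted p of 0.0452 but under the fold that a call needs. The count of 3 was not stable to single libraries. It was 0 without PYY3-36 replicate 1, 2 or 3, saline replicate 8, liraglutide replicate 1 or 4, or replicate 7 or 9 of both drugs, 28 without PYY3-36 replicate 4 and 104 without liraglutide replicate 3.

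**Figure D5:**
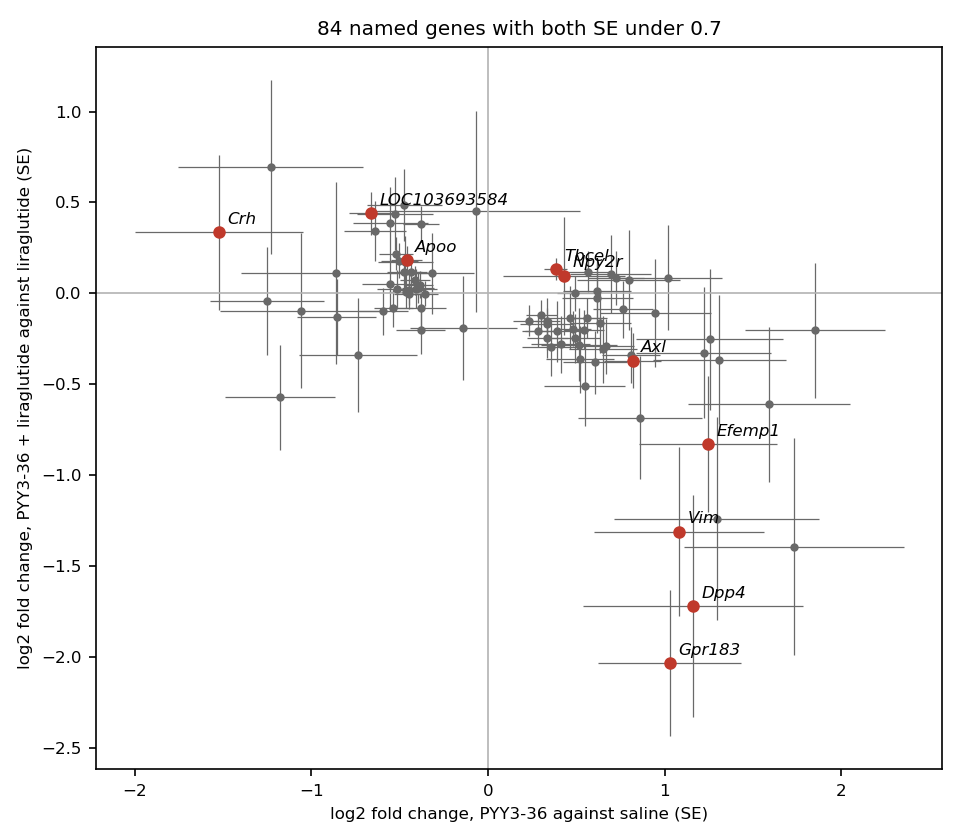
Log2 fold change with PYY3-36 against saline (horizontal) and with PYY3-36 + liraglutide against liraglutide (vertical) for the named genes with both SEs under 0.7, as points with SE bars and some genes named in red. Axl and Gpr183 lie at the lower right (0.82 and 1.03 against -0.37 and -2.04), and LOC103693584 and Apoo at the upper left.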

How the data were processed

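The deposited table holds estimated counts per gene, made by the authors: single-end reads of stranded messenger RNA libraries were trimmed with cutadapt (more than 1 version), aligned with STAR 2.7.2b to the rat assembly Rnor_6.0 and counted with featureCounts 1.6.4, sharing multi-mapping reads in fractions (names and versions from the submitters' processing notes). Of the nonzero values 29.1% were not whole, and all were rounded. Each library was 1 animal per the study's methods. No pair of libraries within either group was alike within sampling noise.

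Genes passing the edgeR (4.0.16, R 4.3.3) expression filter (minimum count 10, minimum total 15) were scaled by TMM and tested with the robust quasi-likelihood test in 1 fit over the 28 batch B libraries, with Benjamini-Hochberg adjustment over all genes tested. A call needed an adjusted p under 0.05 together with a log2 fold change beyond 1 in either direction. The SE was derived from the F statistic. DESeq2 1.42.0 (the study's tool), limma 3.58.1 (voom), other scalings, filters, sample sets and left-out libraries were tried as alternatives, and the script was tested on simulated data.

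The members and gene lists were chosen with earlier results of these data known. Named were the 12 genes with the smallest p in each direction (mean of at least 1 CPM, no provisional symbols), all Y system genes with Agrp, Pomc and Cartpt, up to 4 members of each other list at an unadjusted p under 0.05, up to 12 genes called by an alternative fit, region markers, feeding peptides and receptors of high level, and the genes whose contrasts differed. Levels were compared between genes only per kilobase. Some genes that this rule names are not reported here.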

Additional observations from a re-analysis of the deposited data

Results flagged for a closer look

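A library was flagged where its gap to the nearest library of its group was large against the group's range (Dixon's test), which chance does in about 1 in 20 groups. Here 23 of 238 groups were flagged. The flagged values of Pyy, Npvf and saline Gh1 lay under 1 CPM and rest on few counts. Among PYY3-36 libraries, replicate 1 stood apart by its CPM of Nmu (9.31) and Cga (110.1), and replicate 2 by Scg5 (357.4), Rora (13.43), Grik4 (102.3) and the cortex marker sum (2161). Replicate 3 stood apart by Gh1 (310.1) and Prl (84.68), and replicate 4 by Pyy (0.4614), Nfkb2 (6.673) and Oxt (928.5). Among saline libraries, replicate 4 stood apart by Egr2 (21.43), Timp1 (1.522), Syt1 (1846), the immediate early gene sum (1806) and the neuronal sum (8318). Replicate 5 stood apart by Srebf1 (97.41), replicate 6 by Gh1 (0.9741), Oxt (2857) and Avp (2472), replicate 7 by Npvf (0.171), and replicate 8 by Nmu (1.103) and Gad1 (526.3).

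The log2 fold change with PYY3-36 differed between animals with and without liraglutide in 6 genes at an adjusted p under 0.05 (edgeR interaction term). The differences were 1.10 for LOC103693584, 0.7374 for March9, 0.6421 for Apoo, 0.7622 for Maneal, -1.19 for Axl and -3.065 for Gpr183.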

How the results depend on the processing

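No paired analysis was possible because the groups compared share only 1 replicate number, 4. Against 0 genes called and 0 at an adjusted p under 0.05, the counts were 1 and 7 with library totals, 5 and 49 with a filter of 1 CPM in 4 libraries, 40 and 522 with DESeq2 and shrinkage, 157 and 542 without shrinkage, 106 and 788 with voom, and 4 and 15 without saline replicates 5 and 7. Chosen after seeing the data, leaving out PYY3-36 replicates 1 and 3 gave 1 and 1. Leaving out single libraries of either group gave 0 to 3 genes at an adjusted p under 0.05 (2 without PYY3-36 replicate 4, 3 without saline replicate 5) and none called. Genes at an unadjusted p under 0.05 were 846 higher and 803 lower with all 65 libraries, 965 lower with library totals and 2220 higher with voom. The cause of these shifts was not tested.

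With liraglutide, leaving out single libraries gave 0 to 1 genes called. The 3 genes whose contrasts differed became 0 with the 19 libraries of the 4 groups, 1 with DESeq2 size factors, 6 with library totals, 0 without saline replicates 5 and 7, and 0 to 104 without single libraries. With alternatives chosen after seeing the data they became 0 without PYY3-36 replicate 2 and saline replicate 4, 0 without PYY3-36 replicates 1 and 3, 0 with marker sums as covariates and 5 with the length trend removed.

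Of 95 named genes 7 changed sign under at least 1 of 25 alternatives. Mme was at 0.01018 with library totals, 0.52 with voom, 0.17 without PYY3-36 replicate 2 and saline replicate 4, 0.35 with covariates and -0.3331 to 0.4157 without single libraries. Fap was at -0.14 with voom, -0.09386 with covariates and -0.3346 to 0.3045 without single libraries. Cartpt was at -0.32 and Agrp at -0.44 without PYY3-36 replicates 1 and 3, and at -0.34 and -0.02327 with covariates. Without the same pair Pomc was at -0.25 and Pyy at 0.10, and Pyy was at -3.587 to 0.01937 without single libraries. Egr2 was at 0.04237 without PYY3-36 replicate 2 and saline replicate 4. Of the list medians 842 stayed within the spread between replicates and 58 moved. With 4 and 5 animals the precision is limited, and low genes such as Pyy and Npy4r rest on few counts.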

Other observations

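Values of other animals of batch B are given for genes and sums described above, with no test. Axl measured 31.3 to 33.2 CPM in the 3 bypass-operated animals and 12.8 to 17.2 CPM in the 6 sham-operated animals. Tbcel was at 48.1 to 53.5 and 38.9 to 43.7 CPM, and Apoo at 37.8 to 40.8 and 49.4 to 56.9 CPM. The sum of the oxidative phosphorylation genes was 12600 to 13600 CPM after bypass and 15500 to 18300 CPM after sham surgery. The deviation of short from long genes was -0.214 to -0.129 after bypass and 0.107 to 0.4 after sham surgery, and its part in these values was not tested.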
